A study of Mus musculus with 26 samples.

Results

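Described here are 10 genes of the JAK-STAT cytokine signalling pathway, of 24411 genes counted, followed through mouse CD4+ T cells that lack or alter BATF or Foxp3, and through regulatory and conventional T cells sorted as resting or activated. They were chosen by gene symbol: the receptor chain Il6st, the kinases Jak1 and Jak3, the transcription factors Stat3, Stat5a and Stat5b, and the inhibitors Cish, Socs1, Socs2 and Socs3. All 10 passed the filter on low counts, together with 12227 genes in all. The values are read counts per gene from 26 poly(A) RNA-seq libraries in 13 groups of 2, given here as CPM (reads of a gene relative to the TMM-adjusted library size). The cells were freshly sorted from C57BL6/J spleen and lymph nodes. Nothing in the labels ties the 2 libraries of a group to separate animals, so p-values measure only the spread between these samples, which may be technical.

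In a T cell, a cytokine brings its receptor chains together, and Janus kinases bound to those chains phosphorylate STAT proteins, which then enter the nucleus. JAK1 and JAK3 serve the receptors that share the common gamma chain, such as the interleukin-2 receptor, and mainly activate STAT5. gp130, the product of Il6st, pairs with the interleukin-6 receptor and mainly activates STAT3. CISH and the SOCS proteins are made in response to STATs and damp the same receptors, so their mRNAs are widely used as readouts of the pathway. Regulatory T cells (Treg) depend on interleukin-2 and STAT5 for their survival and for Foxp3, their defining transcription factor. BATF is a partner of Jun proteins that serves the differentiation of Treg in tissues.

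The libraries form 5 sets, each with its own control. In the germline set, WT Treg (CD4+hCD2+) and Tconv (CD4+hCD2-) came from Foxp3-IRES-hCD2 mice, in which human CD2 marks cells that express Foxp3, and BATFKO Treg came from such mice that were also Batf-/-. In the YFP set, CD4+YFP+hCD2- Treg came from Foxp3-IRES-YFPCre/Foxp3-IRES-hCD2 mice with unaltered Batf (WT Treg YFP) or with Batfflox/flox (BATFcKO Treg YFP), so that Cre was driven by Foxp3 and both groups carried it. In the R397W set and the Foxp3KO set, CD4+hCD2+GFP- cells came from mice with a second, wild-type allele, Foxp3-IRES-GFP. Their hCD2 allele was wild type (R397W control Treg, Foxp3KO control Treg), the point mutant Foxp3R397W (Foxp3R397W Treg) or the frameshift allele Foxp3fs101 (Foxp3KO Treg), so wild-type Treg stayed in each of these hosts. In the sorted set, Foxp3-IRES-hCD2 mice gave hCD2+ cells sorted as cTreg (CCR7 high, CD44 low) or eTreg (CCR7 low), and hCD2- cells sorted as Tnaive (CCR7 high, CD44 low) or Teff (CCR7 low), with 1 more surface marker of resting cells in each gate. The cell type label of the Tconv libraries reads Treg, and they were grouped by their title and sort.

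Library totals ran from 5615929 to 34613707 counts, and no pair of libraries agreed within sampling noise. Chi-square per degree of freedom between the 2 libraries of a group was 21.95 to 30.27 in the germline set and 3.04 to 7.91 elsewhere. The main tests pooled the spread over all 13 groups, so p-values in the germline set do not measure the larger spread of that set alone. Batf was lower by 3.19 ± 0.33 (SE) on the log2 scale in BATFKO Treg and by 1.84 ± 0.30 in BATFcKO Treg YFP. Foxp3 mRNA fell by 1.60 ± 0.15 in Foxp3KO Treg, while its log2 difference in Foxp3R397W Treg was -0.25 ± 0.15 (edgeR adjusted p = 0.476). In the 6 conventional libraries Foxp3 averaged 3.32 CPM in Tconv, 2.77 in Tnaive and 0.283 in Teff, against 455 in WT Treg. Summed B cell markers stayed at or below 75 CPM and 3 of 4 erythroid markers were at 0 in every library. The B cell sums were 61.4 and 61.0 CPM in eTreg against 14.2 and 15.55 in cTreg, and 67.3 and 74.7 in Teff against 7.33 and 8.59 in Tnaive. Summed myeloid and dendritic markers were 358 and 143 CPM in the Teff libraries, and summed CD8 and NK markers 380 and 270 CPM, against 45 and 47, and 19 and 21, in Tnaive. None of the 10 myeloid and dendritic or 6 CD8 and NK markers was at 0 in Teff. The largest CD8 and NK share in Teff was Nkg7, at 176 and 131 CPM. The part of B cell, myeloid and dendritic, and CD8 and NK markers in results on eTreg and Teff was not tested. The sum of 12 dissociation stress and immediate early genes ranged from 759 CPM in a Teff library to 15490 CPM in a WT Treg library.

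STAT dimers bind a short palindrome called a GAS element, so the promoters of the members were searched for it. The RefSeq table held a 300-base window (250 bases before to 50 after the transcript start, GRCm38.p6) for 9 of the 10 members, all but Socs2. The letters TTCNNNGAA, which read the same on both strands, occurred in the windows of Cish and Socs3 only, and in 8.3% of all 32851 windows. The Cish window held 2 copies, and 0.457% of all windows held 2 or more. A variant with 1 more base between the half-sites (6.95% of windows), the AP-1 letters TGANTCA of BATF and Jun (7.81%) and the forkhead letters TGTTTAC (3.65%; both strands) were found in no member window, which says only that these letters are not there. The stretches with the matches are shown because these were the 2 member windows that held the letters, and both genes were called in comparisons given below. Capitals mark the GAS letters, and each is 30 bases long. The Cish stretch is chr9:107296654-107296683 on the plus strand, from 5 bases before to base 25 of the RefSeq transcript, and lies in a 5′ UTR of a longer GENCODE transcript. The Socs3 stretch is chr11:117969501-117969530 on the minus strand, from 164 to 135 bases before the RefSeq start, and lies in an intron of 1 of the 3 GENCODE transcripts of Socs3, a noncoding one that starts further upstream.
Cish: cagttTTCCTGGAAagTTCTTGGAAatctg
Socs3: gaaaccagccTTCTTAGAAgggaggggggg
A match of letters is a description and not a bound site.

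The 10 genes lie on 7 mouse chromosomes in the GENCODE M21 annotation (GRCm38). Stat5b (chr11:100780731-100850724), Stat5a (chr11:100859351-100885169) and Stat3 (chr11:100885098-100939540) are neighbours. The 3′ ends of Stat3 and Stat5a overlap on opposite strands, and no source used here gives the strand setting of the count step, so reads there could be assigned to either gene. Cish (chr9:107296026-107302784) and Jak1 (chr4:101152367-101265282) also overlap genes on the opposite strand. Socs3 is at chr11:117966079-117970047, Socs2 at chr10:95385362-95417180, Socs1 at chr16:10782240-10785536, Jak3 at chr8:71676296-71690575 and Il6st at chr13:112464070-112510086, with no opposite-strand gene over them, and Jak3 overlaps Insl3 on its own strand.

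Scaled by exonic length, the members differed widely in level. In cTreg, Jak1 had 171 CPM per kb, Socs3 101, Jak3 81.6 and Stat5b 72.7. Stat3 (43.9), Il6st (42), Socs1 (40.6) and Cish (38.2) were close to each other in CPM per kb. Stat5a had 25.8 and Socs2 3.89 CPM per kb. In Tnaive the kinases and Stat5b were still the most abundant with Socs3, at 189 (Jak1), 74.7 (Socs3), 63.1 (Stat5b) and 56.7 (Jak3) CPM per kb, but Cish stood at 4.22 and Socs2 at 0.0315. The annotated exons of all isoforms were summed for the length, so these levels are approximate.

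Over the 13 groups the highest mean of Stat5b was 1.41 times its lowest, and that of Stat3 1.43 times. The span was 1.90-fold for Il6st, 2.12-fold for Jak3 and 2.27-fold for Stat5a, and Jak1 lay between Stat3 and Il6st. The inhibitors had wider spans, at 3.16-fold for Socs1, 4.23-fold for Socs3 and 15.8-fold for Cish, and Socs2 went from 0.301 to 73.9 CPM. Cish and Socs2 were the members whose values did not overlap between the 20 Treg libraries and the 6 conventional ones: Cish ran from 103 to 334 CPM (median 233) against 16.4 to 77.9 (median 27.7), and Socs2 from 30.4 to 83.1 CPM (median 45.3) against 0.102 to 21.4 (median 1.35). These ranges mix the sets and are a description. The share of all tested genes that separate these libraries was not counted, so whether this is particular to the 2 genes is not known.

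In order of level, Cish was highest in BATFcKO Treg YFP (320 ± 19.8 CPM, SD, n = 2), followed by WT Treg YFP (282 ± 32.8), BATFKO Treg (273 ± 67.3), WT Treg (252 ± 44.1), cTreg (245.3 ± 7.81), R397W control Treg (236 ± 34.9) and eTreg (232 ± 27.4). The neighbours from WT Treg YFP down to eTreg in that order overlapped. Below them, without overlap between neighbours, came Foxp3KO control Treg (180 ± 4.70), Foxp3R397W Treg (134 ± 6.58), Foxp3KO Treg (105 ± 2.50), Teff (67.4 ± 14.8) and then Tnaive (27.1 ± 6.01), which overlapped Tconv (20.3 ± 5.40). Socs2 was highest in BATFKO Treg (73.9 ± 8.14 CPM) and BATFcKO Treg YFP (73.5 ± 9.33), and the neighbours from there down to cTreg (37.1 ± 0.345) overlapped. Foxp3KO control Treg (35.2 ± 1.40), Teff (19.5 ± 2.75), Tconv (1.35 ± 0.0921) and Tnaive (0.301 ± 0.281) followed without overlap. Socs3 went from BATFKO Treg at the top to Teff at the bottom, and 6 of its 12 pairs of neighbours overlapped. For the other members 7 to 9 of the 12 did.

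**Figure D1:**
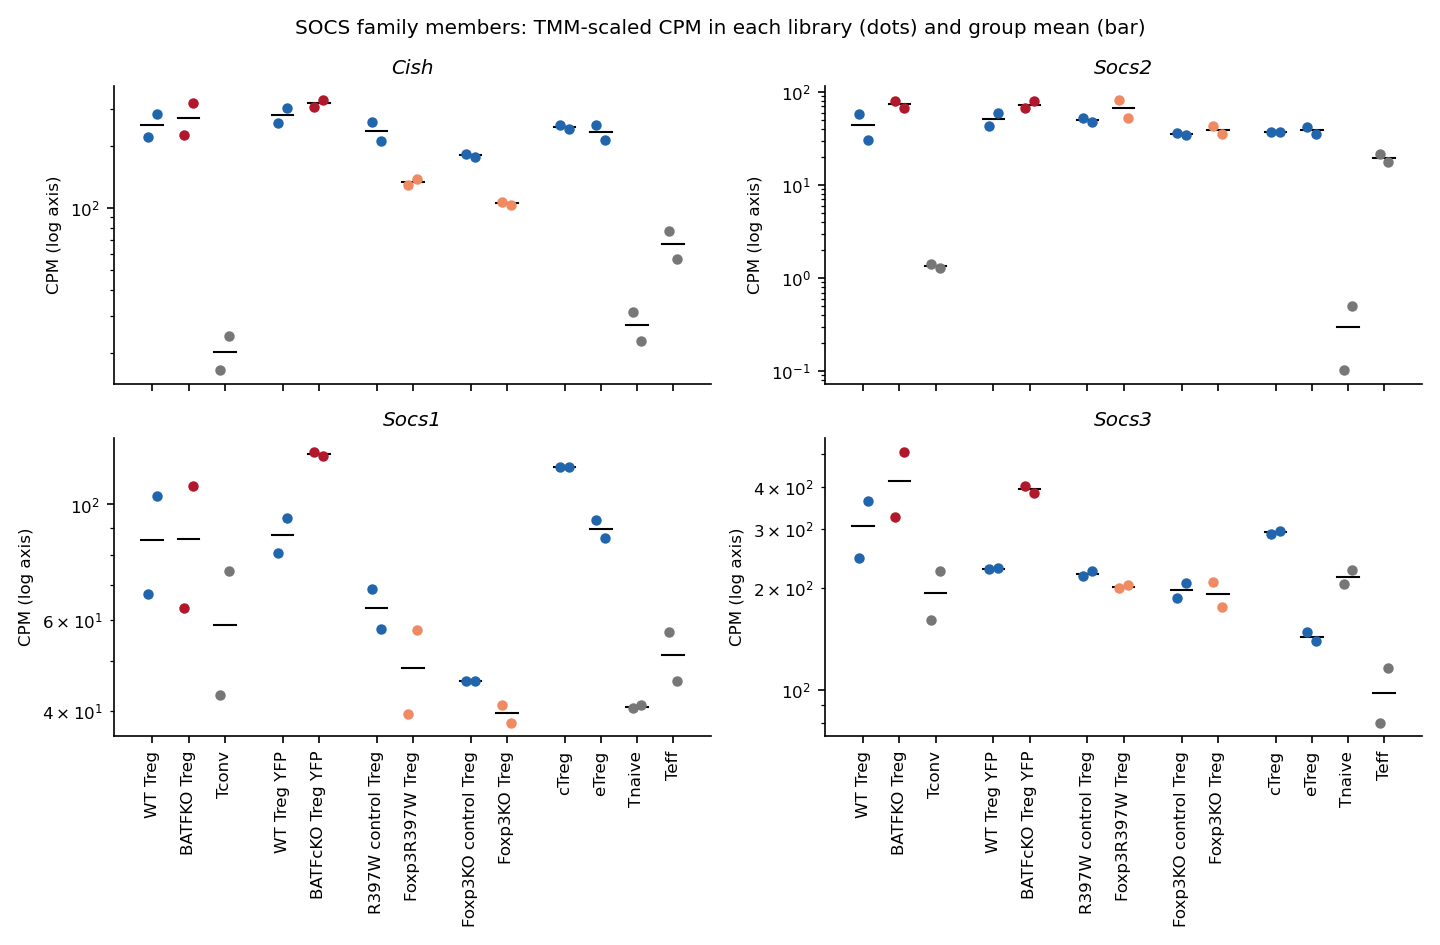
Expression of the 4 inhibitors in each library (dots, TMM-scaled CPM on a log axis) with the mean of the 2 libraries of a group (bar), for the 13 groups arranged by set. Cish and Socs2 are lowest in Tconv and Tnaive (Cish 16.4 to 31.4 CPM), and Socs3 is lowest in Teff and eTreg (80.0 to 148 CPM).

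The first question was whether Treg and conventional T cells at the same stage differ in the pathway. In cTreg against Tnaive, 4 of the 10 members were called higher, with edgeR adjusted p-values below 0.05 after Benjamini-Hochberg correction for all 12227 genes, and 0 lower, while 7.91% of all tested genes were called higher and 4.29% lower. They were Socs2, Cish, Socs1 and Stat5a, that is 3 feedback inhibitors and a STAT of the interleukin-2 pathway. The median log2 difference of the 10 was 0.48. Over all tested genes the median lay between -0.015 and 0.011 in each of the 9 comparisons.

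Socs2, an inhibitor best known from growth hormone signalling, had 1 and 5 reads in the Tnaive libraries (0.102 and 0.499 CPM) and 36.9 and 37.3 CPM in cTreg. The ratio of the summed counts was 123 (95% exact interval 56.1 to 335, for counting error only). Cish, which binds activated cytokine receptors, had 251 and 240 CPM in cTreg and 31.4 and 22.9 in Tnaive, a log2 difference of 3.18 ± 0.21 or 9.04-fold (edgeR adjusted p = 3.7e-09). Both genes were low in naive conventional cells, and the cTreg and Tnaive libraries were far apart for each.

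Socs1, which blocks JAK kinases directly, had 118 CPM in both cTreg libraries against 40.5 and 41.1 in Tnaive (log2 difference 1.53 ± 0.25, edgeR adjusted p = 0.00021). Stat5a had 188 and 181 CPM against 110 and 113 (0.73 ± 0.18, edgeR adjusted p = 0.0093). Stat5b, its close paralog, had 405 and 400 CPM against 350 and 349, a difference of 0.20 ± 0.11 that did not pass (edgeR adjusted p = 0.31). The Stat5a call was lost without cTreg library 1 (0.70, edgeR adjusted p = 0.063), without Tnaive library 1 (0.72, 0.072) and without Tnaive library 2 (0.75, 0.061). The log2 differences of Jak3 (0.52 ± 0.21), Socs3 (0.44 ± 0.20), Stat3 (0.15 ± 0.10), Il6st (0.13 ± 0.11) and Jak1 (-0.15 ± 0.09) did not pass either. In a fit to the sorted set alone, which called 2435 genes here, Jak3 (0.52, edgeR adjusted p = 0.00028) and Stat5b (0.20, 0.033) were called higher.

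In eTreg against Teff, 4 of the 10 members were again called higher and 0 lower (all tested genes: 8.21% higher, 7.26% lower). Cish had 251 and 213 CPM in eTreg and 77.9 and 56.9 in Teff, 3.44-fold (log2 difference 1.78 ± 0.20, edgeR adjusted p = 3.0e-06). Socs2 had 41.6 and 35.6 CPM against 21.4 and 17.5 (0.99 ± 0.25, edgeR adjusted p = 0.010). Socs1 had 93.3 and 86.2 CPM against 56.8 and 45.8 (0.81 ± 0.25, edgeR adjusted p = 0.031), and Stat5a 139 and 150 against 87.8 and 104 (0.59 ± 0.18, edgeR adjusted p = 0.031). For each of the 4 genes both eTreg libraries stood above both Teff libraries.

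Only the Cish call among these 4 held with any 1 library left out. Socs1 was lost without each of the 4 libraries in turn (log2 differences 0.66 to 0.97, edgeR adjusted p 0.064 to 0.23) and when no genes were filtered (0.78, adjusted p = 0.11). Stat5a was lost without eTreg library 1 (0.65, adjusted p = 0.080), eTreg library 2 (0.54, 0.17) or Teff library 1 (0.48, 0.26), and Socs2 without eTreg library 1 (0.87, 0.092) or Teff library 2 (0.85, 0.11). Without Teff library 2, Il6st (0.50, edgeR adjusted p = 0.0075) and Socs3 (0.84, 0.029) were called higher, against 0.31 ± 0.11 and 0.55 ± 0.21 with all libraries (adjusted p 0.061 and 0.088). In the fit to the sorted set alone, which called 2988 genes here, these 2 were called higher too (0.31, edgeR adjusted p = 0.032, and 0.55, 0.046). So were Jak3 (0.49, 0.00041) and Stat5b (0.29, 0.0035), and DESeq2 called Il6st (0.31, adjusted p = 0.023).

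The germline set compared WT Treg with Tconv without a sort by stage, so these groups were not matched for it: the naive markers Ccr7, Lef1, Tcf7 and Igfbp4 summed to 1547 and 1902 CPM in WT Treg and to 4392 and 4753 in Tconv. The part of that shift in the values of this comparison was not tested. Here 3 members were called higher and 1 lower, beside 12.1% and 6.68% of all tested genes. Cish had 221 and 284 CPM in WT Treg and 16.4 and 24.1 in Tconv, 12.4-fold (3.63 ± 0.23, edgeR adjusted p = 1.8e-09). Socs2 had 57.5 and 30.4 CPM against 1.40 and 1.28, and the ratio of its summed counts, 607 and 16 reads, was 33.6 (95% exact interval 20.5 to 59.2). These groups did not overlap for either gene.

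Socs3, the inhibitor that binds gp130, had 247 and 363 CPM in WT Treg against 161 and 225 in Tconv (0.66 ± 0.21, edgeR adjusted p = 0.031). Jak1 had 1053 and 988 CPM against 1391 and 1263 and was lower (-0.38 ± 0.09, edgeR adjusted p = 0.0057). The Socs3 call was lost without WT Treg library 2 (0.34, adjusted p = 0.33), without Tconv library 1 (0.44, 0.23), with no filter (0.63, 0.068) and in a fit to this set alone (0.66, 0.40). The Jak1 call was lost without Tconv library 1 (-0.31, adjusted p = 0.057) and in the fit to this set alone (-0.38, 0.42). Calls were gained for Jak3 without WT Treg library 1 (0.77, adjusted p = 0.019) or Tconv library 2 (0.78, 0.031), and without Tconv library 2 also for Stat5a (0.60, 0.045) and Socs1 (0.98, 0.024).

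The libraries of the germline set differed in stress and immediate early genes, whose summed CPM was 8980 and 15490 for the WT Treg libraries, 7378 and 13090 for BATFKO Treg and 5724 and 9726 for Tconv. In each of these 3 groups the library with the larger sum also had more Socs3, Jak3, Stat3, Stat5a, Stat5b, Socs1 and Cish. The 2 values of Socs3, for example, were 1.47, 1.56 and 1.40 times apart in the WT Treg, BATFKO Treg and Tconv groups. Jak1 and Socs2 were lower in the library with the larger sum in all 3 groups, Socs2 at 0.53, 0.86 and 0.91 times the other. Il6st was lower there in WT Treg and Tconv only. In the other sets the library with the larger sum had less Cish in each group but Foxp3R397W Treg, for example 259 against 305 CPM in WT Treg YFP. The part of the stress and immediate early genes in the germline results was not tested.

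**Figure D2:**
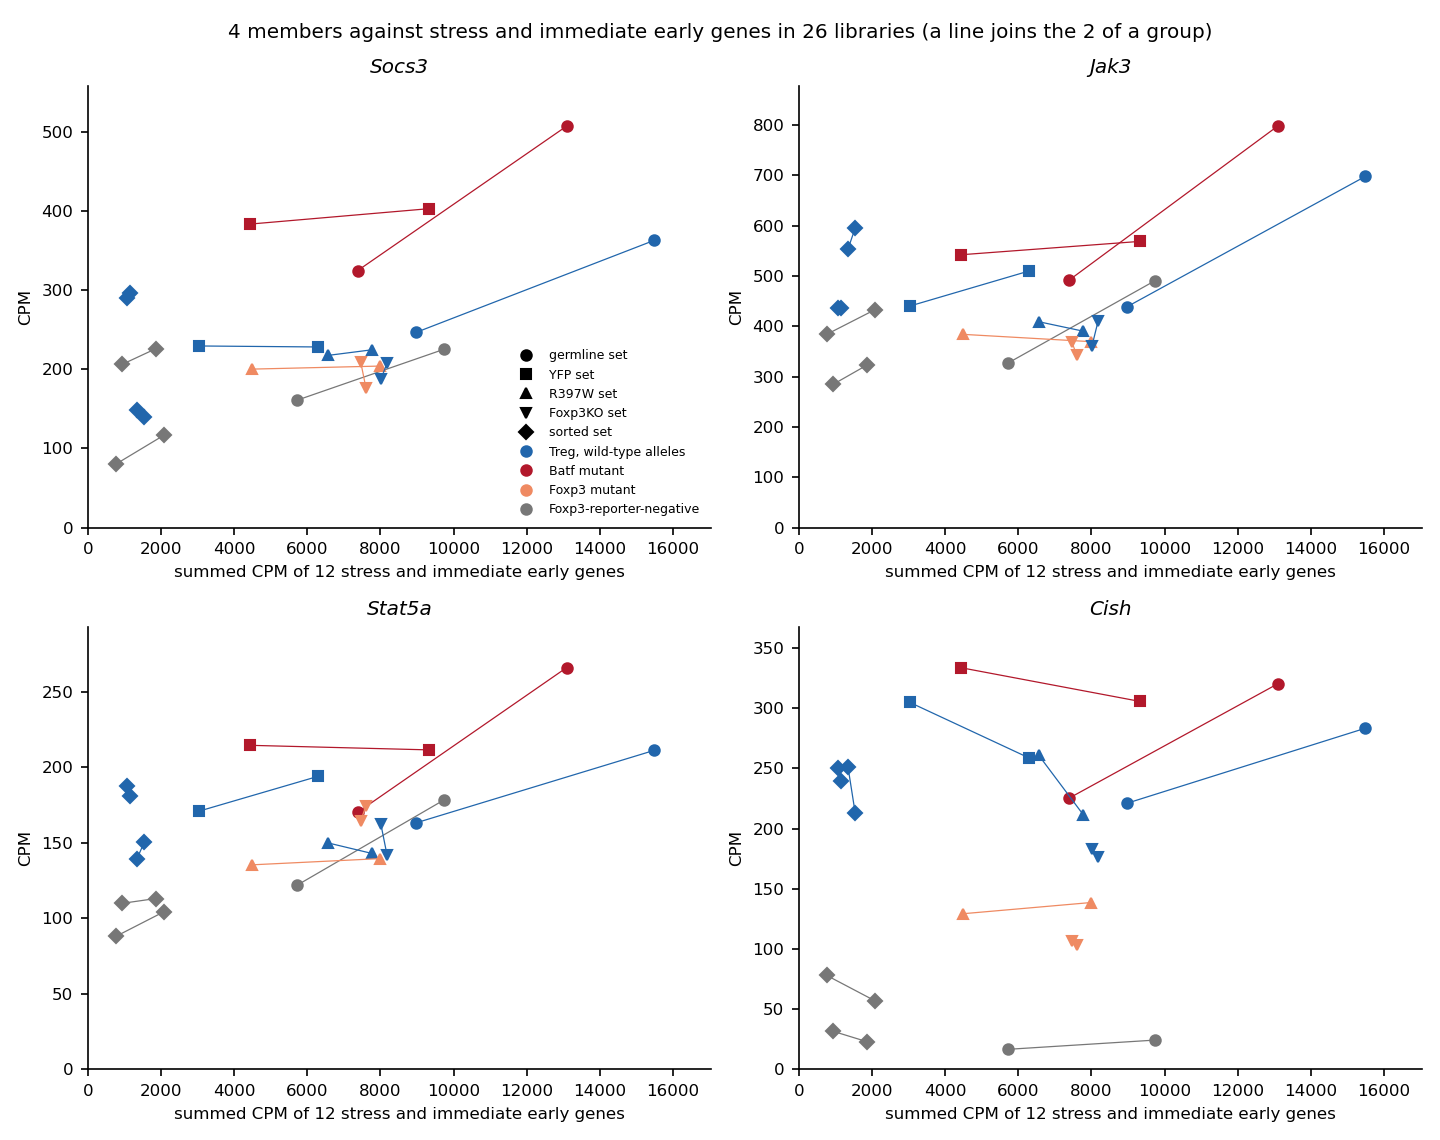
Socs3, Jak3, Stat5a and Cish (CPM, vertical axes) against the summed CPM of 12 dissociation stress and immediate early genes (horizontal axes) in 26 libraries, with a line between the 2 libraries of a group. In the germline set (circles) the library with the larger sum is higher for each of these 4 genes, and the BATFcKO Treg YFP libraries have 403 and 383 CPM of Socs3 at sums of 9314 and 4421 CPM.

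Lists of related genes were compared in the same way, which does not show where in the pathway the members' differences arise. Of 8 common gamma chain receptor genes, 3 were higher and 1 lower in cTreg than in Tnaive (median log2 difference 0.42). Il2ra, the high-affinity interleukin-2 receptor chain, had a mean of 658 CPM against 3.18 (7.69 ± 0.33), and Il2rb, its signalling partner, 933 against 26.1 (5.16 ± 0.22). Il7r, the interleukin-7 receptor chain of naive cells, was lower (-1.71 ± 0.29). Of 12 genes known to be induced by STAT5, a list that includes Il2ra and Foxp3 themselves, 8 were higher and 1 lower in cTreg (median log2 difference 1.29). In eTreg against Teff they were 7 and 1 (0.82), and in WT Treg against Tconv 8 and 1 (1.03). Foxp3 is among the higher genes each time because the cells were sorted by its reporter, and Il2ra is counted in both lists. Among the 4 other SOCS genes, Socs5 was the 1 called in each of these comparisons, higher in Treg by 0.96 ± 0.13, 0.62 ± 0.12 and 0.99 ± 0.14.

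The second question was how the pathway differs between resting and activated cells. In eTreg against cTreg 3 members were called lower and 0 higher (all tested genes: 12.3% lower, 18.8% higher), and in Teff against Tnaive 3 lower and 2 higher (14% lower, 21.2% higher). Socs3, Il6st and Jak1 were lower in the activated cells of both lineages. Stat3, Stat5a, Stat5b, Jak3 and Socs1 were not called in either comparison when all libraries were fitted together. The fit to the sorted set alone called 5394 genes in eTreg against cTreg and 5977 in Teff against Tnaive, of 12227 tested. In that fit edgeR called Jak3 higher in eTreg (0.40, adjusted p = 0.00098) and in Teff (0.43, 0.00054), and Stat5a lower in eTreg (-0.35, 0.0029) and in Teff (-0.21, 0.044). Socs1 was called there in opposite directions, -0.39 in eTreg (edgeR adjusted p = 0.0032) and 0.33 in Teff (0.016), Stat3 was called lower in eTreg (-0.16, 0.036) and Stat5b lower in Teff (-0.18, 0.031).

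Socs3 had 289 and 296 CPM in cTreg and 148 and 139 in eTreg, 2.04-fold lower (-1.03 ± 0.21, edgeR adjusted p = 0.00070). In conventional cells it had 206 and 226 CPM in Tnaive against 80.0 and 116 in Teff, 2.20-fold lower (-1.14 ± 0.21, edgeR adjusted p = 0.00024). The difference between these 2 changes was 0.11 ± 0.29 (edgeR adjusted p = 1). The resting and the activated libraries were apart in both lineages, and these calls held with each library left out.

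Il6st, the shared signalling chain of the interleukin-6 family, had 463 and 468 CPM in cTreg and 336 and 329 in eTreg (-0.49 ± 0.11, edgeR adjusted p = 0.0017). In Tnaive it had 423 and 430 CPM, and in Teff 236 and 301 (-0.67 ± 0.11, edgeR adjusted p = 6.7e-05). Jak1 had 1233 and 1236 CPM in cTreg against 901 and 918 in eTreg (-0.44 ± 0.09), and 1400 and 1334 in Tnaive against 987 and 1024 in Teff (-0.44 ± 0.09), with edgeR adjusted p of 0.00092 and 0.00071. Il6ra, the interleukin-6 binding chain that pairs with gp130, was lower too, by -1.20 ± 0.10 in eTreg and -1.16 ± 0.10 in Teff, and was the only 1 of 4 tested partner chains lower in each.

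The 4 naive markers given above summed to 2328 and 2426 CPM in cTreg, 923 and 953 in eTreg, 4911 and 5155 in Tnaive and 1583 and 1837 in Teff. Socs3, Il6st and Jak1 differed in the same direction as this sum, which holds Ccr7, the gene of a surface protein used for the sort, and in bulk samples fewer cells of a type and less RNA per cell cannot be told apart. Pecam1, listed among the stromal markers but also carried by naive T cells, made up most of the stromal sum, at 273 and 280 CPM in cTreg and 108 and 106 in eTreg. Its part was not tested.

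The feedback inhibitors Cish and Socs2 did not follow that pattern. In Treg, Cish had 251 and 240 CPM in cTreg and 251 and 213 in eTreg (log2 difference -0.08 ± 0.19, edgeR adjusted p = 0.81). In conventional cells it was higher after activation, at 77.9 and 56.9 CPM in Teff against 31.4 and 22.9 in Tnaive (1.31 ± 0.21, 2.48-fold, edgeR adjusted p = 5.3e-05). The change in Treg minus that in conventional cells was -1.39 ± 0.28 (edgeR adjusted p = 0.0039).

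Socs2 showed the same contrast on a larger scale. It had 36.9 and 37.3 CPM in cTreg and 41.6 and 35.6 in eTreg (0.06 ± 0.24, edgeR adjusted p = 0.90), while Teff, with 21.4 and 17.5 CPM, held 411 reads against the 6 of Tnaive. That ratio was 64.1 (95% exact interval 29.2 to 176). The difference of the changes was -5.90 ± 0.59 on the fitted log2 scale (edgeR adjusted p = 3.1e-06), a size that depends on the 6 reads. These were the 2 members called for this difference, beside 5.42% of all tested genes, and Socs1 had -0.72 ± 0.35 (edgeR adjusted p = 0.37). In the fit to the sorted set alone Socs1 was called as well (-0.72, edgeR adjusted p = 0.0036). The comparisons share cTreg, eTreg, Tnaive and Teff libraries with those between lineages above, so they are not separate evidence.

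Upstream of these genes, 4 of the 8 common gamma chain receptor genes were higher and 2 lower in Teff than in Tnaive. Il2rb went from a mean of 26.1 CPM in Tnaive to 1064 in Teff (5.35 ± 0.22) and Il2ra from 3.18 to 56.7 (4.15 ± 0.31). In eTreg Il2ra was lower than in cTreg, at 384 against 658 CPM (-0.78 ± 0.22, edgeR adjusted p = 0.011). Of the other kinases and STATs, Jak2 was higher in Teff (1.30 ± 0.15) and in eTreg (0.64 ± 0.15), Tyk2 likewise (0.56 ± 0.12 and 0.49 ± 0.12), and Stat4, the interleukin-12 STAT, in Teff (0.92 ± 0.15). Of a list of 10 further inhibitors, 3 were higher and 2 lower in Teff and 2 higher and 0 lower in eTreg (median log2 differences -0.015 and -0.002). Ptpn11 was higher by 1.80 ± 0.14 in Teff and 0.88 ± 0.14 in eTreg and Pias3 by 1.29 ± 0.13 and 1.07 ± 0.13, Sh2b3 was higher in Teff (0.53 ± 0.12), and Pias1 (-0.40 ± 0.10) and Pias2 (-0.57 ± 0.16) were lower there. Socs5 was higher in activated cells of both lineages (1.12 ± 0.13 in Teff, 0.78 ± 0.12 in eTreg), the opposite of Socs3. Of 11 genes known to be induced by STAT3, 8 were higher in eTreg and 9 in Teff and 0 lower, with Maf and Rora among them (median log2 differences 3.04 and 5.59).

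Of 10 other receptor genes that couple to JAK kinases, 6 were higher and 0 lower in cTreg than in Tnaive, and 7 higher and 2 lower in Teff than in Tnaive. Il12rb1, a chain of the interleukin-12 and interleukin-23 receptors, was higher in cTreg (2.26 ± 0.24) and in Teff (4.03 ± 0.24), and Il10ra, the interleukin-10 binding chain, in cTreg (1.32 ± 0.17) and in Teff (1.96 ± 0.17). Ifngr2, a chain of the interferon gamma receptor, was lower in Teff (-3.02 ± 0.21) and in eTreg (-1.77 ± 0.19). Of the 11 cytokine ligand genes 8 could be tested, and most had few reads in resting cells. Ifng averaged 36 CPM and Il21 72.1 CPM in Teff, against 7.28 and 5.27 in eTreg, and both were lower in eTreg (-2.30 ± 0.36 and -3.77 ± 0.52).

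**Figure D3:**
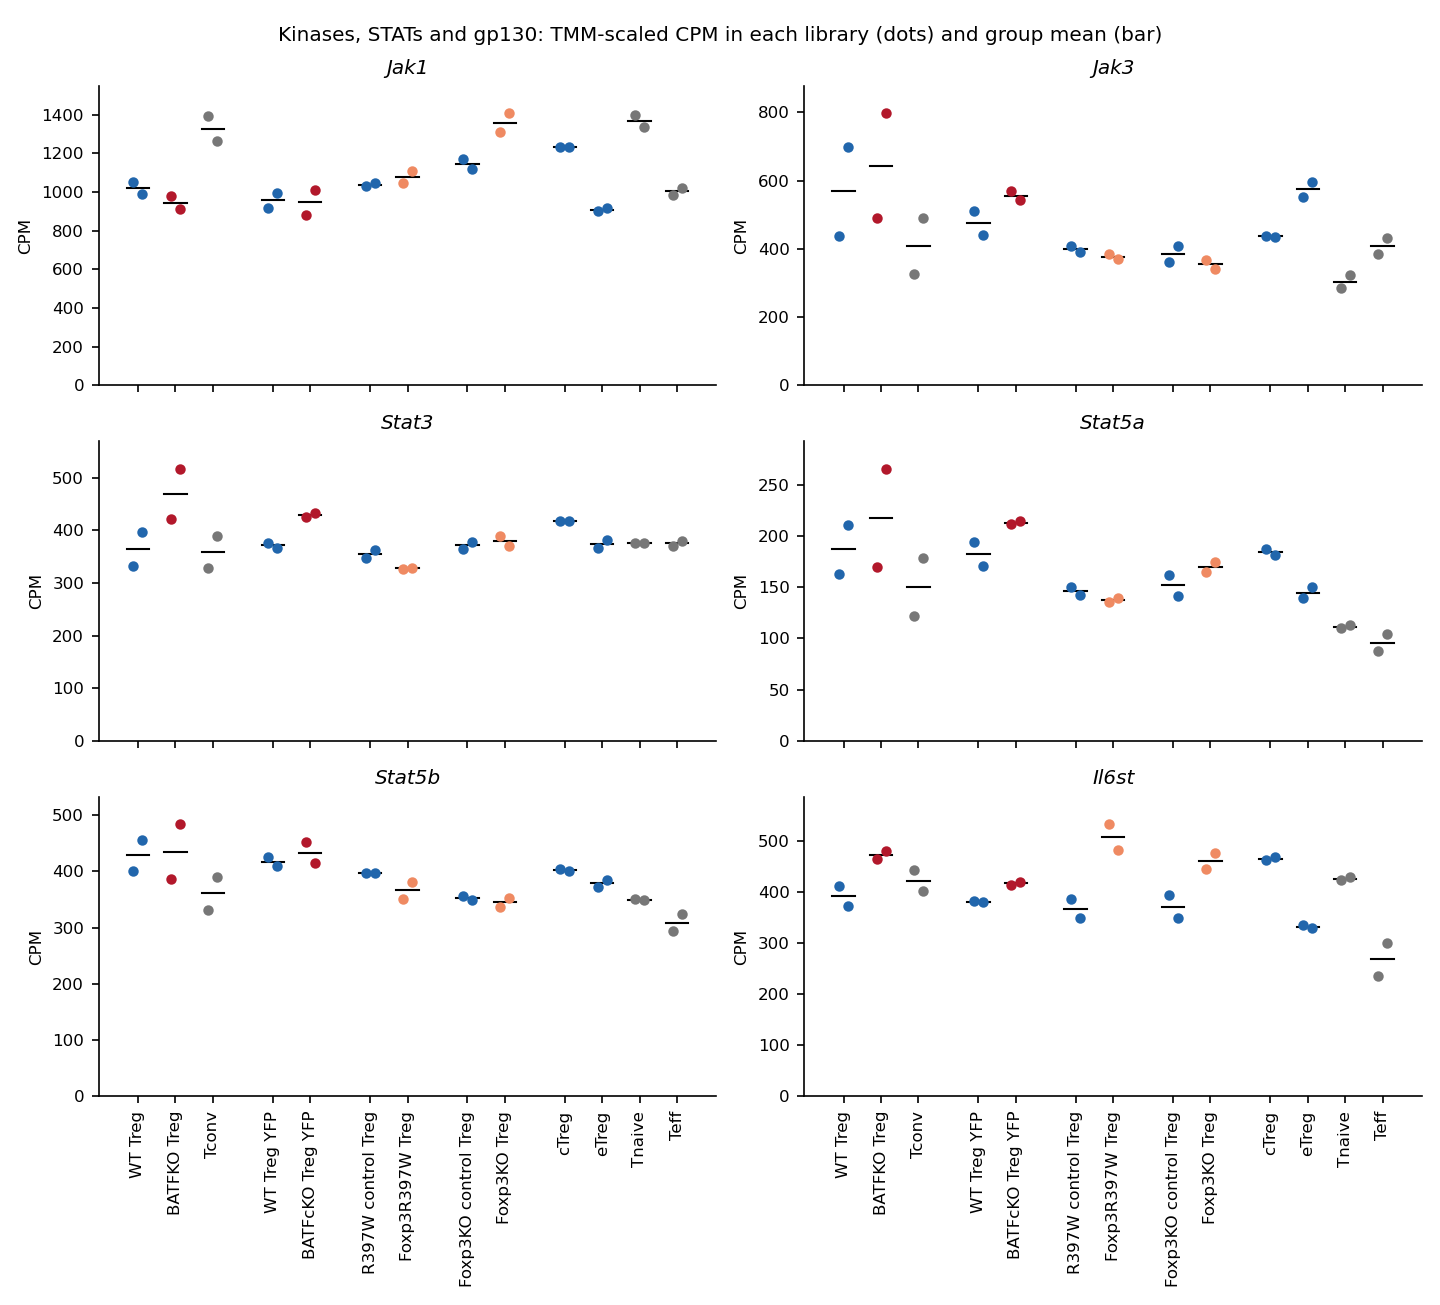
Expression of the kinases, STATs and Il6st in each library (dots, CPM on a linear axis from 0) with the mean of the 2 libraries of a group (bar). Jak1 and Il6st are lower in eTreg and Teff than in cTreg and Tnaive, and Stat3 stays between 327 and 517 CPM in all libraries.

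The third question was what a mutant Foxp3 changes in cells that still carry the reporter of that allele. In Foxp3R397W Treg against their control 2 members were called, Il6st higher and Cish lower, beside 2.18% of tested genes higher and 3.94% lower. In Foxp3KO Treg, Cish was called lower and no member higher (6.39% of tested genes lower, 2.62% higher). The median log2 difference of the 10 was -0.10 and 0.00.

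Cish had 261 and 212 CPM in R397W control Treg and 129 and 139 in Foxp3R397W Treg, 1.77-fold lower (-0.82 ± 0.20, edgeR adjusted p = 0.015). It had 183 and 176 CPM in Foxp3KO control Treg and 107 and 103 in Foxp3KO Treg, 1.71-fold lower (-0.77 ± 0.19, edgeR adjusted p = 0.013). Mutant and control libraries did not overlap in either set, and the mutants stood between the control Treg and the Teff libraries, which had at most 77.9 CPM. Teff came from another set, and Cish differed between the controls of these 2 sets, so that placement is only a description. The difference between the 2 effects was 0.05 ± 0.27 (edgeR adjusted p = 1). In R397W the call was lost without R397W control library 3 (-0.66, adjusted p = 0.19), Foxp3R397W library 1 (-0.77, 0.13) or Foxp3R397W library 2 (-0.87, 0.081), and in Foxp3KO without any 1 of its 4 libraries (-0.74 to -0.79, adjusted p 0.078 to 0.13).

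Il6st had 386 and 349 CPM in R397W control Treg and 534 and 483 in Foxp3R397W Treg, 1.38-fold higher (0.47 ± 0.11, edgeR adjusted p = 0.012). In Foxp3KO Treg it had 446 and 476 CPM against 394 and 350, which did not pass (0.31 ± 0.11, edgeR adjusted p = 0.083) but was called by DESeq2 (0.32, adjusted p = 0.019) and by edgeR in a fit to the Foxp3KO set alone (0.30, 0.0057). The R397W call was lost without R397W control library 4 (0.40, adjusted p = 0.15) or Foxp3R397W library 1 (0.40, 0.13). The difference between the 2 effects on Il6st was -0.16 ± 0.15 (edgeR adjusted p = 1). Across all genes, that difference was called for 0.0164% of those tested and for 0 members, 0 of them also at an unadjusted p below 0.05.

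The other members were not called in either mutant when all libraries were fitted together. Socs2 had 83.1 and 52.4 CPM in Foxp3R397W Treg against 52.1 and 47.4 (0.44 ± 0.25, edgeR adjusted p = 0.42), and Socs1 39.6 and 57.3 against 68.9 and 57.7 (-0.38 ± 0.26, 0.54). Jak1 had 1310 and 1408 CPM in Foxp3KO Treg against 1172 and 1118, without overlap (0.25 ± 0.09, edgeR adjusted p = 0.11). DESeq2 (0.26, adjusted p = 0.0058) and edgeR in the fit to the Foxp3KO set alone (0.24, 0.0023) called it higher, and the latter called Socs1 lower (-0.22, 0.021). Of all tested genes DESeq2 called 1290 in this comparison, and the fit to the Foxp3KO set alone 4121. Stat3, Stat5a, Stat5b, Jak3 and Socs3 lay within 0.16 of 0 on the log2 scale in both mutants. Socs3, at 200 and 204 CPM in Foxp3R397W Treg and 209 and 176 in Foxp3KO Treg, thus stayed near its controls (217 and 225, 188 and 207).

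Interleukin-2 receptor genes were lower in both mutants. Il2rb was lower by -1.24 ± 0.19 in Foxp3R397W Treg and -1.03 ± 0.18 in Foxp3KO Treg, and Il2ra by -0.95 ± 0.22 and -0.94 ± 0.22. With Il9r they were the 3 of 8 common gamma chain receptor genes called lower in each mutant, and 0 were higher (list medians -0.26 and -0.13). Il10ra was lower too, by -1.21 ± 0.17 and -1.08 ± 0.16. Of the 12 STAT5-induced genes 4 were lower and 0 higher in each (medians -0.23 and -0.12; in Foxp3KO Treg they include Foxp3, the altered gene), among them Pim1 (-1.17 ± 0.28 and -0.95 ± 0.27) and Tnfrsf4 (-1.33 ± 0.21 and -1.18 ± 0.20). Socs5 was lower as well (-0.66 ± 0.13 and -0.68 ± 0.12).

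Of the 11 STAT3-induced genes, 4 were higher and 0 lower in Foxp3R397W Treg, and 3 higher and 2 lower in Foxp3KO Treg (medians 0.20 and -0.17). Il17a, an inflammatory cytokine, was higher in both and averaged 53 and 14.8 CPM against 0.635 and 0.26 in the controls. In Foxp3KO Treg the list also held Rora, which was lower (-1.14 ± 0.17). The sum of the 4 naive markers was 2696 and 2719 CPM in Foxp3R397W Treg against 1574 and 1554, and 3384 and 3557 in Foxp3KO Treg against 1954 and 1836. Treg marker sums were 2108 and 2118 CPM against 3997 and 3951, and 1570 and 1636 against 3032 and 2965. The part of these shifts in the Cish and Il6st values was not tested.

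The last question was what loss of BATF does to the pathway. The WT Treg libraries used here also served the comparison with Tconv. At the threshold no member was called in BATFKO Treg (background 1.05% higher, 1.64% lower) or in BATFcKO Treg YFP (0.319% higher, 1.72% lower) by edgeR in the main fit to all libraries. With a term for the library number added (the replicate block of the closing part), 4 members were called higher in each, among 1036 and 1115 genes. Without that term, 4 members in BATFKO Treg and 3 in BATFcKO Treg YFP had an unadjusted edgeR p below 0.05. The share of all tested genes at that level was not counted, so these 2 counts have no background. DESeq2 called 1 member in each, Stat3 and Socs3, among 460 and 368 genes. The median log2 difference of the 10 members was 0.20 in BATFKO Treg and 0.21 in BATFcKO Treg YFP, beside -0.004 and -0.015 over all tested genes. The 4 naive markers summed to 1551 and 2469 CPM in BATFKO Treg against 1547 and 1902, and to 2064 and 2042 in BATFcKO Treg YFP against 1742 and 1584. Treg marker sums were 3392 and 3116 CPM against 3876 and 3694, and 3079 and 3221 against 3302 and 3579. Pecam1 had 266 and 282 CPM in BATFKO Treg against 199 and 193, and 268 and 254 in BATFcKO Treg YFP against 197 and 207. The part of these shifts in the members' values was not tested.

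Socs3 had 325 and 507 CPM in BATFKO Treg against 247 and 363 in WT Treg, with overlapping groups (0.45 ± 0.20, edgeR adjusted p = 0.38). In the YFP set it had 403 and 383 CPM against 228 and 229, with no overlap, which came close to the threshold (0.78 ± 0.21, edgeR adjusted p = 0.058) and passed it in DESeq2 (0.81, adjusted p = 0.014) and in a fit to the YFP set alone (0.79, 0.00016). The stress and immediate early sums in the YFP set were 6301 and 3024 CPM in WT Treg YFP and 9314 and 4421 in BATFcKO Treg YFP. The part of these genes in the Socs3 values was not tested.

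Stat3 had 421 and 517 CPM in BATFKO Treg against 333 and 396 (0.37 ± 0.10, edgeR adjusted p = 0.079; DESeq2 0.38, adjusted p = 0.019). It was called without BATFKO library 1 (0.51, edgeR adjusted p = 0.017) and without WT Treg library 2 (0.51, 0.041). In the YFP set it had 425 and 433 CPM against 377 and 367 (0.21 ± 0.10, edgeR adjusted p = 0.52). Socs2 had 79.6 and 68.1 CPM in BATFKO Treg against 57.5 and 30.4 (0.74 ± 0.25, edgeR adjusted p = 0.15), and was called without WT Treg library 1 (1.28, 0.010), which left 1 WT Treg library at 30.4 CPM. In the YFP set Socs2 had 66.9 and 80.1 CPM against 43.1 and 58.9 (0.53 ± 0.25, edgeR adjusted p = 0.45).

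Il6st had 466 and 480 CPM in BATFKO Treg against 413 and 373 (0.27 ± 0.11, edgeR adjusted p = 0.28), and 415 and 420 against 382 and 381 in the YFP set (0.13 ± 0.11, edgeR adjusted p = 0.78). Socs1 had 63.3 and 108 CPM against 67.3 and 104 in the germline set (0.01 ± 0.25), and 126 and 124 against 80.7 and 94.2 in the YFP set (0.52 ± 0.25, edgeR adjusted p = 0.47; in a fit to the YFP set alone 0.53, 0.014). Cish, Jak1, Jak3, Stat5a and Stat5b lay within 0.23 of 0 on the log2 scale in both sets. In the germline set the spread between the 2 libraries of a group was as large as most of these differences. Part of that spread was common to same-numbered libraries, whose deviations correlated by 0.495 to 0.571, though no label says that a number pairs them.

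The difference between the BATFKO and the BATFcKO effects was called for 0% of tested genes by edgeR, 0 members among them, and for 10 genes by DESeq2. For Socs3 it was -0.33 ± 0.29 and for Stat3 0.16 ± 0.15 (edgeR adjusted p = 1 for each). Around the members, Lif, a ligand of gp130, was higher in BATFKO Treg (0.89 ± 0.18, edgeR adjusted p = 0.0090). That call was lost in the fit to the germline set alone, which called 2 genes, 0 of them higher. In BATFcKO Treg YFP 0 of the 8 tested cytokine ligand genes were called. Among the STAT3-induced genes, Rora was lower in BATFKO Treg (-1.50 ± 0.18) and in BATFcKO Treg YFP (-2.27 ± 0.20), as was Batf itself. Of the common gamma chain receptor genes Il9r was lower in BATFcKO Treg YFP (-2.72 ± 0.45) and none was called in BATFKO Treg.

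**Figure D4:**
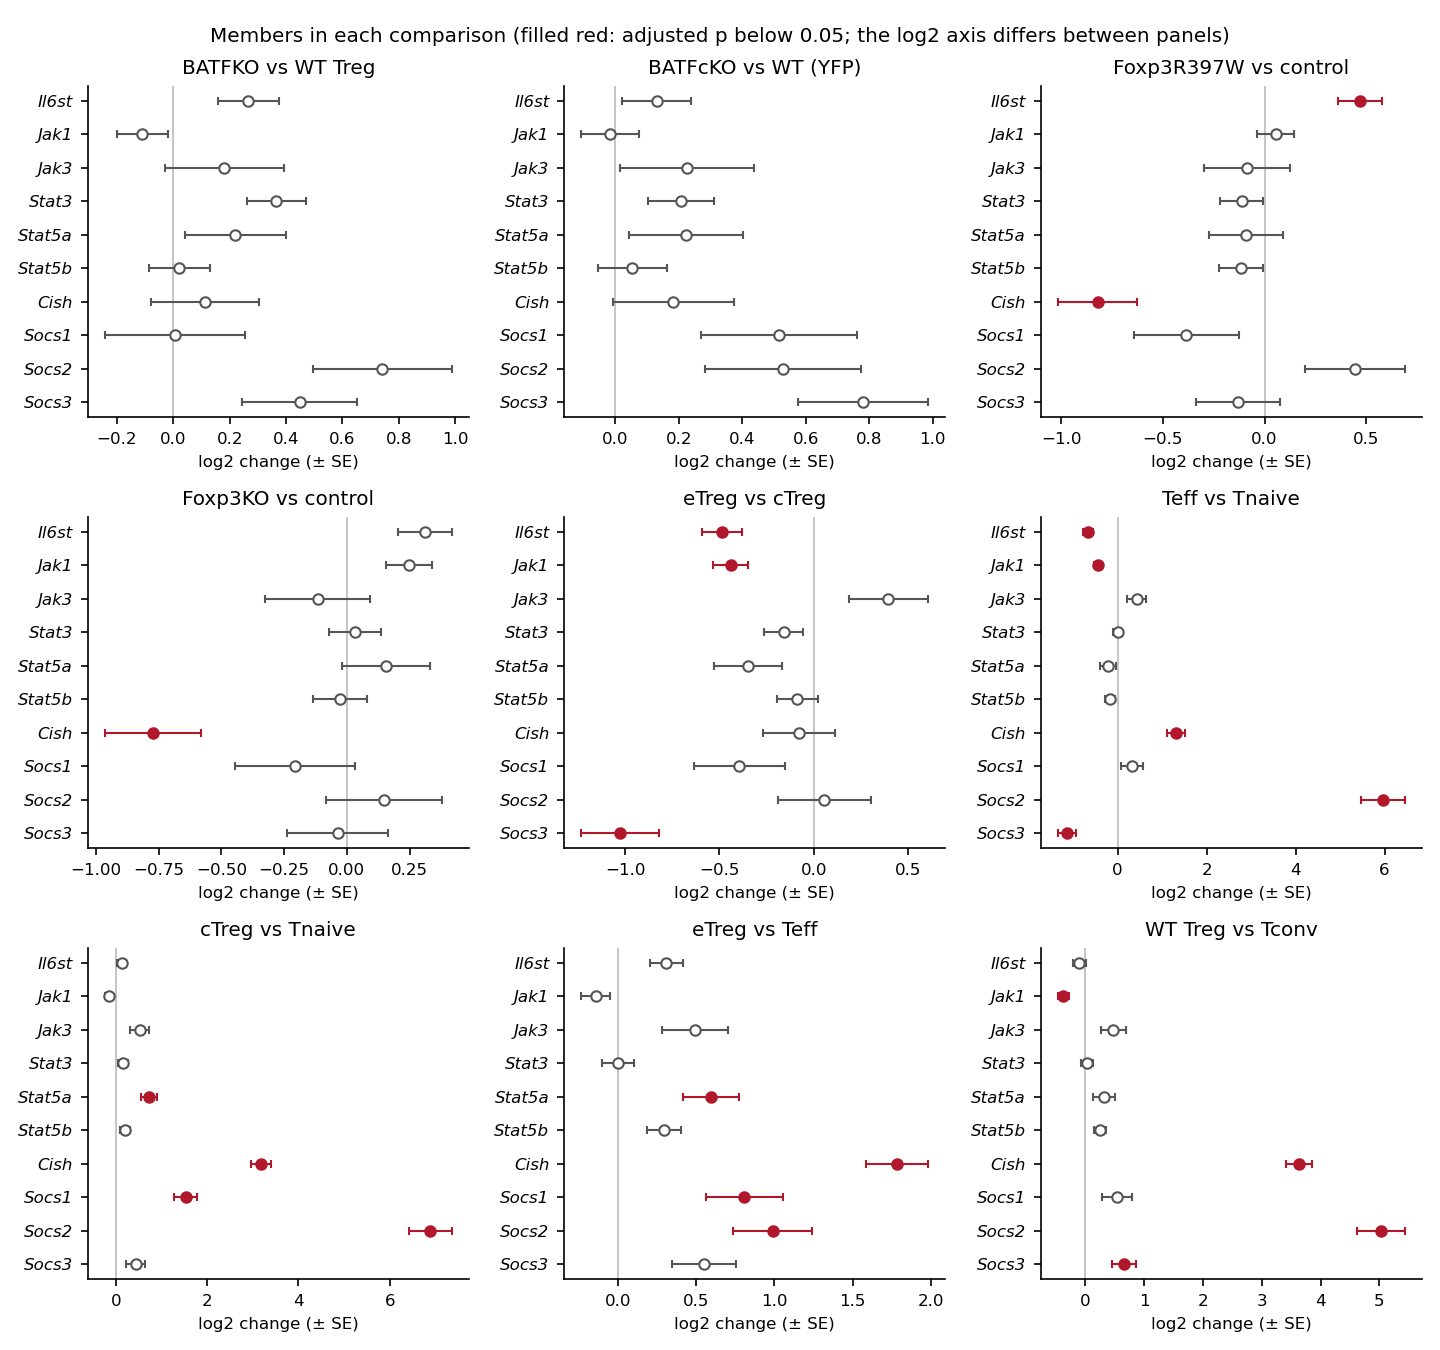
Log2 differences (points) ± approximate SE (bars) of the 10 members in 9 comparisons, with filled red points where the edgeR adjusted p was below 0.05; the horizontal scale differs between panels. The BATF comparisons hold 0 filled points, Cish is filled to the left in both Foxp3 mutants, and Cish and Socs2 are filled to the right in all 3 comparisons of Treg with conventional cells.

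Across the 13 groups, some members varied together. Over the group means of log2 CPM, each centred on its set, Pearson r was 0.92 between Stat5a and Stat5b, 0.90 between Cish and Socs2, 0.89 between Cish and Jak3, and -0.87 between Jak1 and Jak3. Socs3 had r = 0.71 with Il6st and 0.81 with Stat5b. These 13 points share libraries, scaling and the same sorted populations, and are a description. Centring leaves fewer free values than points: where a set holds only a mutant and its control, their values mirror each other. The genes named next were picked as the closest of 12227 tested, so a high r is built into that choice. By the same measure the tested genes most like Cish were Col15a1 (r = 0.993) and Swap70 (0.991), and those most like Socs2 were Rasa1 (0.992) and Gm4956 (0.98). Stat3 was most like Gbp2 (0.975) and Irf1 (0.957), Socs3 most like Elovl5 (0.956) and Dyx1c1 (0.948), and Il6st most like Cux1 (0.956) and Gipc3 (0.954). Jak1 was most like Naa15 (0.998) and Toporsos (0.992), Jak3 most like Eva1b (0.989) and Gpx4 (0.977), and Socs1 most like Usp27x (0.962) and Adcy3 (0.951). Stat5a was most like Birc3 (0.968) and Slc27a3 (0.967), and Stat5b most like Frmd6 (0.986) and Ppm1l (0.977).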

How the data were processed

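Read counts per gene, deposited by the authors as whole numbers in 1 table, were used for 26 libraries. Reads were aligned with STAR 2.6.1c to mm10, per the submitters' processing notes. No source used here gives the annotation or strand setting of the count step, and the labels name 2 library kits without assigning them. The table has 4 more columns, which fit no label and were left out. Tests used edgeR 4.0.16 under R 4.3.3, with limma 3.58.1: filterByExpr left 12227 genes, TMM gave the scaling, and glmQLFit (robust, 1 coefficient per group) took all 26 libraries together. Each comparison was a contrast, with Benjamini-Hochberg adjustment over all tested genes and a threshold of 0.05. The SE was derived from the F statistic and is approximate. The script was tested on simulated counts with 200 changed genes. Ratios of summed counts have exact 95% intervals; reads are not independent molecules, so these cover counting error only. Totals of 5615929 to 34613707 counts set the precision.

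The members, the gene lists and the tests were chosen with earlier results of these data known. The genes named were the 10 members, Batf and Foxp3, up to 3 called and 2 uncalled genes of each list per comparison by smallest p (their values in other comparisons are also given), and the 2 genes most like each member. Pias1, Pias2 and the markers Nkg7 and Pecam1 were named after their values were seen. Calls of members lost without 1 library are named beside their result. Calls of single list genes were not followed through the alternative runs, except for Lif, where the count of called genes settled it. The alternatives were DESeq2 1.42.0 (its size factors, and its own test), no filter, a fit to each set alone, a replicate block and leaving out each library. Figures were drawn with matplotlib 3.10.9 in Python 3.11.15. No gene length was available from the authors, so CPM per kb used GENCODE exons. Naive markers are given as the sum of 4 of the 5 listed genes, chosen after the data were seen, and some genes of the lists are not reported here.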

Additional observations from a re-analysis of the deposited data

Results flagged for a closer look

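The change from resting to activated cells differed between Treg and conventional cells for 2 members, by a test of the difference itself in edgeR's quasi-likelihood model over all libraries. For Socs2 the change in Treg (eTreg against cTreg) minus that in conventional cells (Teff against Tnaive) was -5.90 ± 0.59 on the log2 scale (adjusted p = 3.1e-06), and for Cish it was -1.39 ± 0.28 (adjusted p = 0.0039). The Socs2 value rests on 6 reads in Tnaive. With each of the 8 libraries left out in turn, Socs2 ranged from -7.37 to -5.23 and Cish from -1.67 to -1.15, and both stayed past the threshold. Summed CD8 and NK markers were 380 and 270 CPM in Teff against 19 and 21 in Tnaive, and the part of such cells was not tested.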

How the results depend on the processing

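No called member value turned its direction under any alternative run. DESeq2's size factors differed from the TMM scaling by -0.046 to 0.025 on the log2 scale in single libraries, after centring on the mean difference. Calls by member were unchanged for 97 of 97 values with DESeq2's size factors, 92 with DESeq2's test, 95 with no filter, 75 in a fit to each set alone, 45 of 75 with the replicate block and 383 of 416 with 1 library left out; 25 of the last were sign changes of uncalled values.

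With DESeq2, members called became 1 in BATFKO Treg, 1 in BATFcKO Treg YFP and 3 in Foxp3KO Treg, among 460, 368 and 1290 genes. The genes called for the difference of the BATF effects became 10 (6 with no filter). In a fit to each set alone, genes called became 2 in BATFKO Treg and 378 in BATFcKO Treg YFP (2 members). They became 1416 in Foxp3R397W Treg and 4121 in Foxp3KO Treg (4 members). They became 2435 in cTreg against Tnaive, 2988 in eTreg against Teff (8 members) and 565 in WT Treg against Tconv (2 members). For the difference of activation they became 1174, and for that of the Foxp3 mutants 7. Of 12227 tested genes, 5394 were called in eTreg against cTreg (7 members) and 5977 in Teff against Tnaive (9 members).

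Sign changes of uncalled values were Jak1 in BATFcKO Treg YFP (0.0101 with DESeq2's size factors, 0.0104 with DESeq2, 0.021 with no filter), Stat3 in WT Treg against Tconv (-0.0034, -0.0042 and -0.0063) and Socs1 in BATFKO Treg (-0.008 with the replicate block).

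The labels number libraries 1 and 2 in 3 sets but do not say that a number pairs them. Deviations of same-numbered libraries correlated by 0.495 to 0.571 in the germline set, 0.242 in the YFP set and 0.08 to 0.233 in the sorted set. With the replicate block, genes and members called became 1036 and 4 in BATFKO Treg, 1115 and 4 in BATFcKO Treg YFP, 5973 and 7 in eTreg against cTreg, 6486 and 9 in Teff against Tnaive, 2897 and 8 in cTreg against Tnaive, 3609 and 9 in eTreg against Teff, and 4168 and 8 in WT Treg against Tconv; the difference of activation had 1641 genes, Socs1 among them (-0.72, edgeR adjusted p = 0.0058), and that of the BATF effects 139. The 4 members were all higher: in BATFKO Treg Stat3 (0.36, edgeR adjusted p = 4.1e-05), Socs3 (0.44, 0.018), Socs2 (0.77, 0.040) and Il6st (0.27, 0.049), and in BATFcKO Treg YFP Socs3 (0.78, 0.00038), Socs1 (0.52, 0.0087), Stat3 (0.21, 0.014) and Jak3 (0.23, 0.028). Libraries 1 and 2 of BATFKO Treg had 1.27 and 1.31 times the Stat3 of the same-numbered WT Treg libraries, and 1.32 and 1.40 times the Socs3. The R397W and Foxp3KO sets share no numbers with their controls.

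With 1 library left out, genes called ranged from 176 to 355 in BATFKO Treg (members 0 to 1), 73 to 160 in BATFcKO Treg YFP, 329 to 412 in Foxp3R397W Treg (members 0 to 1), 417 to 693 in Foxp3KO Treg (members 0 to 0), 993 to 1043 in cTreg against Tnaive and 1168 to 1467 in eTreg against Teff (members 1 to 4), members from 2 to 7 in WT Treg against Tconv, and genes from 431 to 602 for the difference of activation, 0 to 23 for that of the BATF effects and 0 to 0 for that of the Foxp3 mutants. A lone library was assumed to vary like the other groups. Log2 ranges that crossed 0 were, in BATFKO Treg, Cish -0.15 to 0.35, Jak3 -0.20 to 0.57, Socs1 -0.41 to 0.36, Stat5a -0.12 to 0.51 and Stat5b -0.14 to 0.18; in BATFcKO Treg YFP, Jak1 -0.12 to 0.0819 and Stat5b -0.0112 to 0.12; in Foxp3KO Treg, Socs3 -0.14 to 0.0834 and Stat5b -0.0586 to 0.0223; in eTreg against cTreg, Cish -0.21 to 0.0355 and Socs2 -0.0587 to 0.16; Stat3 -0.0269 to 0.0142 in Teff against Tnaive, -0.0311 to 0.0265 in eTreg against Teff and -0.13 to 0.14 in WT Treg against Tconv; and, for the differences of effects, Stat3 -0.0184 to 0.30 (BATF) and Cish -0.11 to 0.19 (Foxp3). Depth limits Socs2, with 6 reads in the Tnaive libraries; the lowest count of another member in a library was 93 reads, for Cish.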
